A study of Homo sapiens with 6 samples.

Results

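Lysosomal hydrolases, lysosomal membrane proteins and autophagy factors were followed in human neural stem cells exposed to the compound X5050 or to the solvent DMSO. The set holds 43 genes out of 18417 gene symbols measured, chosen by symbol with earlier results of these data known. Each is represented by the probe set with the highest mean signal among those annotated to that symbol alone. Of these genes, 28 encode lysosomal enzymes, an enzyme activator or membrane proteins, 14 encode autophagy proteins, and the remaining gene encodes TFEB, a transcription factor for both. X5050, described in the title of the study as an inhibitor of REST, a repressor of neuronal genes, was given at a final concentration of 100 µM, and DMSO at 0.1%. The cells were neural stem cells of passage 14, made from SA-01, a line of human embryonic stem cells. Their medium combined Neurobasal with D-MEM/F-12 and the supplements N-2 and B-27, and exposure began 5 h after plating and lasted 24 h. Each of 3 cultures gave 1 X5050 and 1 DMSO sample, and RNA of the resulting 6 samples was hybridised to Affymetrix gene expression arrays. All samples thus share 1 line, 1 dose and 1 time point, and the labels name the solvent only for the DMSO arm.

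The lysosome is an acidic compartment in which hydrolases take apart glycans, proteins and lipids that arrive by endocytosis or by autophagy. Most of its soluble enzymes receive a mannose 6-phosphate tag in the Golgi and are delivered by receptors that recognise it, and the loss of a single enzyme often leads to a storage disorder that affects the nervous system. In autophagy, a cup of membrane called the phagophore expands around cytoplasmic cargo with the help of lipid transfer and of ubiquitin-like ATG8 proteins, closes, and fuses with the lysosome. TFEB raises transcription of many lysosomal and autophagy genes by binding a palindromic element known as the CLEAR motif, and the kinase complex mTORC1 keeps it in the cytoplasm when nutrients are plentiful.

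Values are log2 signals as deposited, so a difference of 1 is a doubling of signal. Array medians lay between 5.68 and 5.75 and upper quartiles between 7.38 and 7.43. Changes are X5050 minus DMSO within each culture, tested with limma with the culture as a block, and called where the Benjamini-Hochberg adjusted p over 19460 probe sets was under 0.05. Of 12 neural stem cell markers, 8 (SOX2, NES, PAX6, MSI1, MSI2, VIM, FABP7 and PROM1) exceeded the upper quartile of every array, and so did 6 of 9 neuronal markers. Changes of the stem cell markers were below 0 for 7 and above 0 for 5, with a median of -0.10, and 0 were called. They ranged from -0.42 (NES, adjusted p = 0.113 by limma) to 0.15 (SOX2). Markers of microglia and macrophages, cells rich in lysosomes, averaged 4.59 to 4.68 on the X5050 arrays and 4.53 to 4.63 on the DMSO arrays, and 10 of 12 lay below the median of every array. Mesenchymal and matrix markers averaged 7.95, 6.87 and 7.08 in X5050 samples of cultures 1, 2 and 3, against 8.38, 7.23 and 7.12 in the DMSO samples, and all 14 had their highest culture mean in culture 1. In these bulk samples fewer cells of a type and less RNA per cell cannot be told apart.

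The threshold was passed by 1 of the 43 genes on the probe sets used. MANBA, which encodes the lysosomal beta-mannosidase, rose 1.57-fold and was the only member called higher, and 0 members were called lower. A second probe set of ATG2B, not used for these counts, also passed (change 0.73, adjusted p = 0.0389 by limma) and is described below. Among all probe sets 0.498% were called, 0.190% higher and 0.308% lower. When limma was fitted without the culture block, 0 of the 43 and 0 of all 19460 probe sets passed the threshold in either direction. At an unadjusted p under 0.05, 6 members were higher and 1 was lower with the block, beside 7.06% and 7.48% of all probe sets, and 5 were higher and 1 was lower without it, beside 4.50% and 4.88%. The members' median change was 0.033, against 0.0092 over all probe sets, and 38 of the 43 lay within 0.25 of 0. The 95% interval of a single member reached a median of 0.22 to either side, so smaller changes were mostly not resolved with these 3 cultures.

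**Figure D1:**
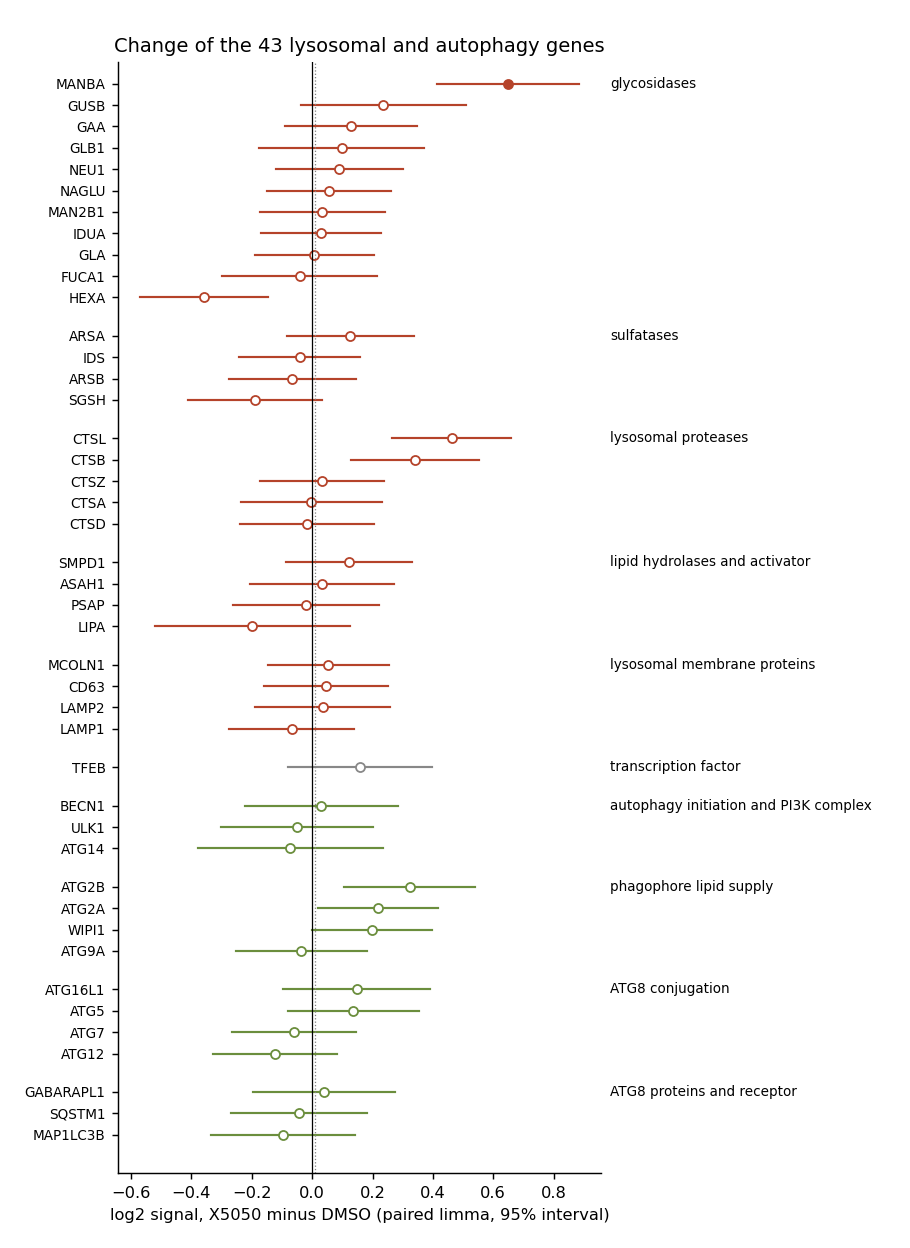
X5050 minus DMSO change of each of the 43 genes on a log2 scale (horizontal axis), by role, with 95% intervals from the paired limma fit. Filled points passed an adjusted p of 0.05 and the dotted line marks the median of all 19460 probe sets tested. MANBA, at 0.65, is the only filled point, HEXA lies farthest below 0 at -0.36, and most intervals cross 0.

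Lysosomal and autophagy members had similar median changes. Among the 28 lysosomal genes 18 changes were above 0, with a median of 0.033, and among the 14 autophagy genes 7 were above 0, with a median of -0.0028. The X5050 and DMSO arrays did not overlap for 5 members higher in X5050 (MANBA, GUSB, CTSL, ATG2A and ATG2B) and for 1 lower in X5050 (HEXA). Over all probe sets, 14.9% were separated in this way, 7.51% with X5050 higher and 7.41% with X5050 lower. Changes were above 0 in all 3 cultures for 10 members and below 0 in all 3 for 3 members, beside 18.0% and 17.5% of all probe sets.

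The 11 glycosidases, which remove sugars from the ends of glycan chains, held the highest and the lowest of the member changes on the probe sets used. Beta-mannosidase cleaves the mannose left in the core of N-linked glycans, and its gene lies at chr4:102630770-102760968 (GRCh38.p14). MANBA had log2 signals of 8.62, 8.41 and 8.47 in the X5050 samples of cultures 1, 2 and 3, against 7.80, 7.97 and 7.78 in the DMSO samples. The means were 8.50 ± 0.11 in X5050 and 7.85 ± 0.11 in DMSO (SD, n = 3 each). Every X5050 array was above every DMSO array, and the rise was 0.82, 0.43 and 0.69 in the 3 cultures. The paired fit gave 0.65 (SE 0.10, 95% interval 0.41 to 0.88) with an adjusted p of 0.0481, 81st of 19460 by p, and the unblocked fit gave the same change with an adjusted p of 0.232. The call was also lost without culture 3 (0.63, adjusted p = 0.269) and when each array was centred on its median (0.63, adjusted p = 0.0562). Of the nearest genes tested on either side, NFKB1, an NF-kappaB subunit gene 13467 bases away, had a change of 0.26 (SE 0.095, adjusted p = 0.245), and CISD2, an iron-sulfur protein gene 108023 bases away, 0.070 (SE 0.094, adjusted p = 0.816).

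HEXA encodes the alpha subunit of beta-hexosaminidase A, the enzyme of ganglioside breakdown that is missing in Tay-Sachs disease. HEXA had 6.63, 6.59 and 6.70 in the X5050 samples, against 6.87, 7.07 and 7.06 in the DMSO samples. All X5050 values lay below all DMSO values, with changes of -0.24, -0.48 and -0.36, yet the paired change of -0.36 (SE 0.092, adjusted p = 0.133) did not pass the threshold. GUSB, the beta-glucuronidase of glycosaminoglycan breakdown, had 7.76, 7.75 and 7.79 in X5050 samples against 7.19, 7.72 and 7.68 in DMSO samples. Its groups did not overlap either, but most of its change of 0.24 (SE 0.12, adjusted p = 0.425) came from culture 1, where the DMSO value was low. FUCA1, the alpha-L-fucosidase, had 6.64, 6.78 and 6.42 in X5050 samples against 6.45, 6.77 and 6.73 in DMSO samples, and these overlapped (change -0.041, SE 0.11). The other 7 glycosidases, among them the alpha-mannosidase MAN2B1, the alpha-galactosidase GLA, the beta-galactosidase GLB1 and the acid alpha-glucosidase GAA, had changes between 0.0070 (GLA) and 0.13 (GAA). The heparan sulfate glycosidases NAGLU and IDUA stood at 0.055 and 0.028, MAN2B1 at 0.034, GLB1 at 0.098 and the sialidase NEU1 at 0.089. NEU1 had 2 further probe sets, of which 1 held identical values and the other a change of 0.10.

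**Figure D2:**
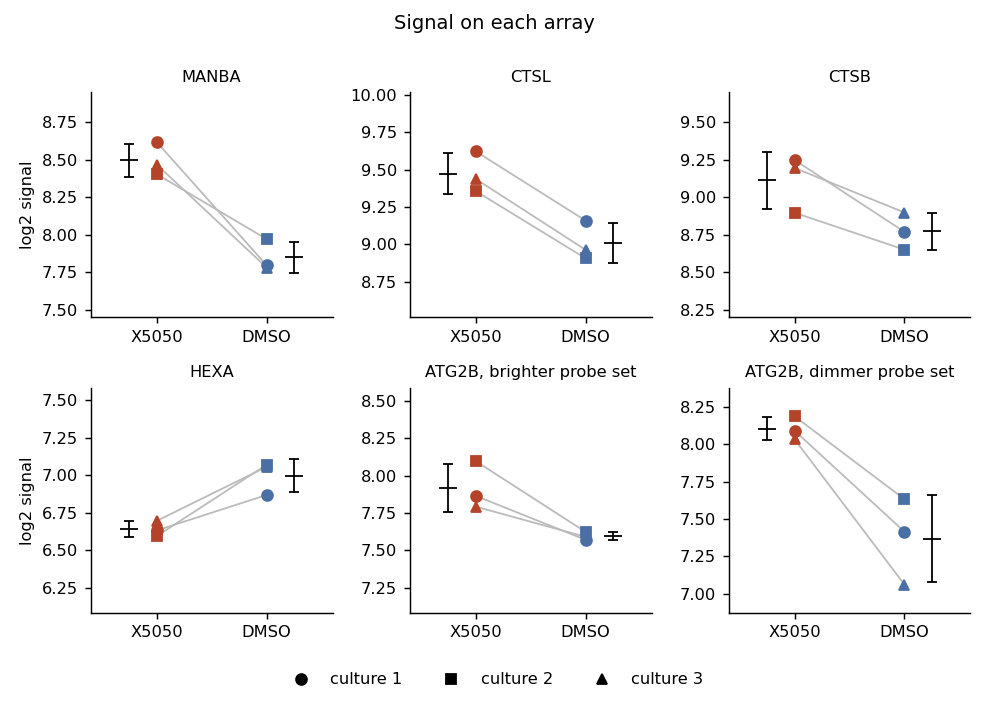
Log2 signal (vertical axis) of MANBA, CTSL, CTSB, HEXA and both ATG2B probe sets on each array, X5050 at the left and DMSO at the right of each panel, with lines joining samples of 1 culture and mean and SD (n = 3) beside the points. X5050 and DMSO points are apart for all of these except CTSB, and HEXA is the only one with X5050 below DMSO.

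None of the 4 sulfatases, which remove sulfate from glycosaminoglycans and sulfatides, passed the threshold by limma, and at an unadjusted p under 0.05 the count was 0 in both fits. ARSA, the sulfatase of sulfatide breakdown in myelin, had 5.03, 4.84 and 5.28 in X5050 samples against 4.84, 4.85 and 5.08 in DMSO samples (change 0.13, SE 0.092). All of these values lay below the median of every array. ARSB, which acts on dermatan and chondroitin sulfate, had 7.82, 7.36 and 7.62 in X5050 samples against 7.82, 7.56 and 7.62 in DMSO samples (change -0.065, SE 0.092). SGSH, the heparan N-sulfatase, had 5.78, 5.33 and 5.69 in X5050 samples against 5.92, 5.69 and 5.76 in DMSO samples, lower in every culture though the groups overlapped (change -0.19, SE 0.096, adjusted p = 0.427). The iduronate sulfatase gene IDS had a change of -0.041, and its other probe set one of -0.14.

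Among the 5 lysosomal proteases, CTSL and CTSB had larger changes than the other 3, and 0 passed the threshold (an unadjusted p under 0.05 was reached by these 2 alone in either limma fit). CTSL encodes cathepsin L, a cysteine protease that cuts within protein chains. It had 9.62, 9.36 and 9.44 in X5050 samples against 9.16, 8.91 and 8.96 in DMSO samples. The groups did not overlap and the 3 cultures gave nearly equal changes of 0.46, 0.45 and 0.47, with 0.46 (SE 0.086, adjusted p = 0.0693) in the paired fit. CTSL passed the threshold when the dimmer probe sets were left out (adjusted p = 0.0344) or when the prior variance followed the intensity (adjusted p = 0.0229). CTSB, for the related cathepsin B, had 9.25, 8.90 and 9.20 in X5050 samples against 8.77, 8.65 and 8.90 in DMSO samples. X5050 was above DMSO within each culture (0.48, 0.25 and 0.30), while culture 2 with X5050 lay just below culture 3 with DMSO, and the change was 0.34 (SE 0.093, adjusted p = 0.145). CTSD, the aspartic protease cathepsin D, had 7.18, 6.92 and 7.15 in X5050 samples against 7.02, 7.01 and 7.27 in DMSO samples. CTSA, a carboxypeptidase that also shields beta-galactosidase and NEU1, had 8.69, 8.42 and 8.72 in X5050 samples against 8.51, 8.61 and 8.71 in DMSO samples. Their changes of -0.018 and -0.0023, and that of the carboxypeptidase gene CTSZ (0.032), were smaller than their standard errors. The CTSZ signal lay below the median of every array.

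The 4 genes of lysosomal lipid breakdown gave no call, with 0 also at an unadjusted p under 0.05 in both limma fits. SMPD1, the acid sphingomyelinase, had 6.15, 5.96 and 6.09 in X5050 samples against 6.00, 5.95 and 5.88 in DMSO samples (change 0.12, SE 0.091). ASAH1, the acid ceramidase, had 9.50, 9.26 and 9.48 in X5050 samples against 9.57, 9.36 and 9.21 in DMSO samples (change 0.033, SE 0.10). Neither change was resolved from 0. LIPA, the acid lipase that frees cholesterol from its esters, had 7.35, 6.48 and 7.31 in X5050 samples against 7.43, 7.12 and 7.20 in DMSO samples. Its X5050 sample of culture 2 was the lowest of the 6 and set the negative change of -0.20 (SE 0.14), which was 0.021 without that culture. PSAP, the precursor of the saposins that present sphingolipids to their hydrolases, had 9.85, 9.36 and 9.67 in X5050 samples against 9.63, 9.56 and 9.75 in DMSO samples (change -0.020, SE 0.11).

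Lysosomal membrane proteins differed even less, and again 0 of 4 passed at an adjusted or an unadjusted p under 0.05 in either limma fit. LAMP1, a main glycoprotein of the lysosomal coat, had 7.83, 7.65 and 7.63 in X5050 samples against 7.80, 7.71 and 7.80 in DMSO samples (change -0.068, SE 0.090). CD63, a tetraspanin of late endosomes and lysosomes, had 11.98, 11.81 and 11.89 in X5050 samples against 11.91, 11.69 and 11.95 in DMSO samples (change 0.047, SE 0.090). MCOLN1, the calcium channel mucolipin 1, had 7.03, 6.95 and 7.13 in X5050 samples against 6.91, 6.95 and 7.09 in DMSO samples (change 0.054, SE 0.088). LAMP2, a partner of LAMP1 with a role in autophagosome fusion, had a change of 0.035. The 95% interval of each of these 4 changes included 0. TFEB had 5.25, 5.25 and 5.61 in X5050 samples against 5.30, 5.09 and 5.25 in DMSO samples, all below the median of every array. Its changes were -0.051, 0.16 and 0.36 in cultures 1, 2 and 3, so the direction was not shared, and the paired change was 0.16 (SE 0.10, adjusted p = 0.567).

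Promoters of the members were searched for the E-box CACGTG and for TCACGTGA, the core of the CLEAR motif that TFEB is known to bind. Each of these reads the same on both strands, and the longer contains the shorter. RefSeq promoter windows on GRCh38.p14, running from 250 bases before to 50 bases after the start of a gene, were at hand for 34 of the 43 members. CACGTG was found for 9 members (26.5%), beside 8.77% of 27305 genes with a window. Some genes have several windows, and a gene was counted if any of its windows held the sequence. Counted by window, CACGTG was in 18% of the 50 member windows and 7.26% of all 35116, and TCACGTGA in 8% and 0.98%. TCACGTGA was found for 4 members (11.8%: GAA, CTSA, LAMP1 and MCOLN1), beside 1.18% of all genes. The windows of these 4 genes are shown because they carry the element, and those of CTSL and ATG2B, members with larger changes, for comparison, with CACGTG or TCACGTGA in capitals. GAA lies at chr17:80101331-80101630, CTSA at chr20:45891085-45891384, LAMP1 at chr13:113296989-113297288, MCOLN1 at chr19:7522374-7522673 and CTSL at chr9:87725869-87726168, all on the plus strand, and ATG2B at chr14:96363292-96363591 on the minus strand.
GAA: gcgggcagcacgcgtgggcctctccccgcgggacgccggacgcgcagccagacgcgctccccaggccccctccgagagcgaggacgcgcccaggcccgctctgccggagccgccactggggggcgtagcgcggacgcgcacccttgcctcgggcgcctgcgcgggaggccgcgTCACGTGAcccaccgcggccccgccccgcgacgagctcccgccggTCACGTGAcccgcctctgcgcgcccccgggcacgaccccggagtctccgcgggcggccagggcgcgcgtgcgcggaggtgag
CTSA: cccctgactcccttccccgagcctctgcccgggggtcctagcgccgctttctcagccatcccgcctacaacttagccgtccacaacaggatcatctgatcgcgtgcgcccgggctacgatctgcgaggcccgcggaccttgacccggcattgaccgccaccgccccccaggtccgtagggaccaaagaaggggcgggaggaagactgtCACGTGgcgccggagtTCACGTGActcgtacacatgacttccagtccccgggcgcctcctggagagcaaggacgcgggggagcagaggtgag
LAMP1: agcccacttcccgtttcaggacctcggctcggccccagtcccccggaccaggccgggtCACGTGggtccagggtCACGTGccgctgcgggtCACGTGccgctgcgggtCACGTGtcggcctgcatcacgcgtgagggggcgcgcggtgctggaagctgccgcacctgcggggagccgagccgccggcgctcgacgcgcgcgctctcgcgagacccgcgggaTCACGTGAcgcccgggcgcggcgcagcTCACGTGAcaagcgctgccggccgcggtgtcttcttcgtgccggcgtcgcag
MCOLN1: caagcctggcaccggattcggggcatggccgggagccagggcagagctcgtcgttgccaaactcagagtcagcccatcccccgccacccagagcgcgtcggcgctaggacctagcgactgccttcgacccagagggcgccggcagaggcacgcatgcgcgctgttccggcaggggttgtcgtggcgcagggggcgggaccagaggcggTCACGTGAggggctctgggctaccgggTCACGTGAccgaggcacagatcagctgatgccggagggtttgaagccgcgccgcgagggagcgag
CTSL: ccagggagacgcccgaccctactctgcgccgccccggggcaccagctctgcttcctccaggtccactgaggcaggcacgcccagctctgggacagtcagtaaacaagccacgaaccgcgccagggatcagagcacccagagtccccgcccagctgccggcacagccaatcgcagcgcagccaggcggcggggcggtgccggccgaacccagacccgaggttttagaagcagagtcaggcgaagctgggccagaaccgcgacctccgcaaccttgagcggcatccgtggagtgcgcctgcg
ATG2B: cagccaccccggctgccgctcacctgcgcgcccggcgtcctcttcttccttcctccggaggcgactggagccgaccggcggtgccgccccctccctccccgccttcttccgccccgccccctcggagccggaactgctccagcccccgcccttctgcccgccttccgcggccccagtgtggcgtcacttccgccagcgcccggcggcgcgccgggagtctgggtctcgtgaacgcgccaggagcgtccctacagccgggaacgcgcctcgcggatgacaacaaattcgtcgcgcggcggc

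GAA, LAMP1 and MCOLN1 each hold 2 copies of TCACGTGA, and the LAMP1 window holds 6 E-boxes in all. The 4 genes with TCACGTGA had changes from -0.068 (LAMP1) to 0.13 (GAA) with a median of 0.026. The median was -0.0023 for the 9 members with CACGTG and 0.032 for the 25 members with a window but no CACGTG. The windows of CTSL, ATG2B and TFEB held neither sequence. MANBA, HEXA and CTSB are among the 9 members whose windows were not analysed here, so these medians leave them out. A match is a description of the letters and does not show binding.

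In the autophagy genes, 0 of 14 passed the threshold in either limma fit on the probe sets used. At an unadjusted p under 0.05 there were 3 higher and 0 lower with the culture block, beside 7.06% and 7.48% of all probe sets. Without the block there were 2 and 0, beside 4.50% and 4.88%. The 3 found with the block were ATG2A, ATG2B and WIPI1, of the 4 members that supply lipid to the phagophore or mark it. ATG2A and ATG2B are related proteins that carry lipid from the endoplasmic reticulum into the growing phagophore, WIPI1 binds phosphatidylinositol 3-phosphate on it, and ATG9A moves lipid between the leaflets of its membrane. ATG2B had 7.87, 8.10 and 7.79 in X5050 samples against 7.57, 7.62 and 7.59 in DMSO samples on its brighter probe set. The groups did not overlap, and the change was 0.32 (SE 0.094, adjusted p = 0.166). Its dimmer probe set had 8.09, 8.19 and 8.03 in X5050 samples against 7.42, 7.63 and 7.06 in DMSO samples. This set rose by 0.73 (SE 0.11, adjusted p = 0.0389), again with every X5050 array above every DMSO array. Its call was lost in the unblocked fit (adjusted p = 0.286) and without culture 3 (0.61, adjusted p = 0.230). The 2 probe sets of ATG2B thus gave the same direction and changes of unequal size. The median of the 2 probe sets gave 0.53 and passed the threshold.

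ATG2A had 6.20, 6.18 and 6.28 in X5050 samples against 5.94, 5.99 and 6.08 in DMSO samples. Its values were separated with X5050 higher and its changes were 0.26, 0.20 and 0.20, with a paired change of 0.22 (SE 0.086, adjusted p = 0.293). WIPI1 had changes of 0.17, 0.18 and 0.25 in the 3 cultures (paired change 0.20, SE 0.087, adjusted p = 0.342), and its groups overlapped because culture 1 was highest in both arms. ATG9A had 7.18, 7.01 and 7.06 in X5050 samples against 7.08, 7.18 and 7.11 in DMSO samples (change -0.036, SE 0.094), so the 4 genes of this step did not all point the same way. Their median change was 0.21.

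Genes that start autophagy were spread around 0. BECN1, a core subunit of the phosphatidylinositol 3-kinase complex, had 7.35, 6.98 and 7.30 in X5050 samples against 7.13, 7.23 and 7.18 in DMSO samples (change 0.030, SE 0.11). ATG14, which directs that complex to autophagy, had 6.57, 6.50 and 6.76 in X5050 samples against 6.38, 6.99 and 6.68 in DMSO samples (change -0.072, SE 0.13). ULK1, the kinase that receives the signal from mTORC1, had 6.62, 6.43 and 6.61 in X5050 samples against 6.39, 6.59 and 6.83 in DMSO samples (change -0.050, SE 0.11). In each of the 3 genes X5050 was above DMSO in culture 1 and below it in culture 2.

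Conjugation of ATG8 proteins to lipid depends on ATG7, an E1-like enzyme, and on the ATG12-ATG5-ATG16L1 complex. ATG5 had 8.97, 8.86 and 8.91 in X5050 samples against 8.96, 8.76 and 8.62 in DMSO samples (change 0.14, SE 0.095), higher in all 3 cultures. ATG16L1 had 6.34, 6.02 and 6.14 in X5050 samples against 5.95, 6.05 and 6.06 in DMSO samples (change 0.15, SE 0.11). ATG12 had 6.28, 6.13 and 6.14 in X5050 samples against 6.45, 6.32 and 6.16 in DMSO samples, lower in all 3 cultures (change -0.12, SE 0.090). None of these 3 changes was resolved from 0, and ATG5 and ATG12 had opposite signs. ATG7 had 7.12, 7.07 and 6.99 in X5050 samples against 7.09, 7.16 and 7.12 in DMSO samples (change -0.062, SE 0.090).

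Of the ATG8 proteins, GABARAPL1 had 7.17, 6.91 and 7.20 in X5050 samples against 6.91, 7.04 and 7.20 in DMSO samples (change 0.040, SE 0.10). MAP1LC3B, the LC3 protein used to count autophagosomes, had 4.92, 4.98 and 4.99 in X5050 samples against 5.26, 4.97 and 4.95 in DMSO samples. All of these values lay below the median of every array. The negative change of MAP1LC3B (-0.096, SE 0.10) came from culture 1. SQSTM1, the receptor p62 that binds ubiquitinated cargo and is itself degraded by autophagy, had 7.45, 6.80 and 7.26 in X5050 samples against 7.43, 7.03 and 7.18 in DMSO samples (change -0.044, SE 0.098). The arrays measure RNA, so these values say nothing of lipidated LC3 or of p62 protein.

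The cultures gave mixed signs for 30 of the 43 members (69.8%), beside 64.5% of all probe sets. In culture 1 the change was above 0 for 33 of the 43, with a median of 0.15, in culture 2 for 17 with a median of -0.031, and in culture 3 for 29 with a median of 0.041. The medians were 0.14, -0.027 and 0.019 in cultures 1, 2 and 3 for the lysosomal genes and 0.18, -0.11 and 0.077 for the autophagy genes. Both kinds thus followed the same order, and so did 140 other genes of these pathways, described below (0.0945, -0.022 and 0.025). Medians over all probe sets, most of them dimmer, were 0.00062, 0.0030 and 0.0040. The X5050 array of culture 2 had the highest median of the arrays (5.75) and the lowest upper quartile (7.38). Whether the order goes with signal level was not tested. MANBA and CTSL were among the 10 members above 0 in each culture.

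**Figure D3:**
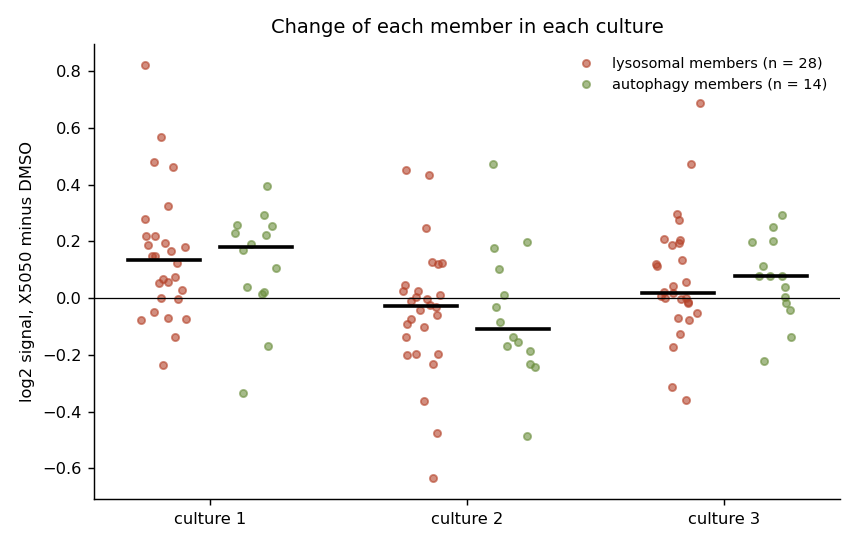
X5050 minus DMSO change on a log2 scale (vertical axis) of every lysosomal and autophagy member in cultures 1, 2 and 3, each point a gene and each bar the median of a kind. Medians are 0.14, -0.027 and 0.019 for lysosomal genes and 0.18, -0.11 and 0.077 for autophagy genes.

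With both arms averaged, most lysosomal genes had their lowest level in culture 2. This comparison, with a moderated F test over the 3 culture means, was chosen after the data were seen. The mean of the X5050 and DMSO samples was lowest in culture 2 for 20 of the 28 lysosomal genes (71.4%), beside 37.0% of all probe sets. Every sulfatase, protease, lipid hydrolase and membrane protein gene was among these, against 3 of the 11 glycosidases. The median deviation of the lysosomal genes from their own mean was 0.065 in culture 1, -0.095 in culture 2 and 0.034 in culture 3. None of the 43 passed an adjusted p of 0.05 in limma's F test, which 2.93% of all probe sets did, and 7 (16.3%) passed at an unadjusted p under 0.05, near the 15.6% of all probe sets. IDS, with the lowest p of these, had 9.71, 9.29 and 9.35 in X5050 samples of cultures 1, 2 and 3 against 9.78, 9.36 and 9.33 in DMSO samples, so culture 1 was highest in both arms. Median deviations of neural stem cell, mesenchymal and astrocyte markers had the order of the lysosomal genes, highest in culture 1 and lowest in culture 2. Those of neuronal markers, and of microglia and macrophage markers, were highest in culture 3. Of the 9 neuronal markers, 4 were lowest in culture 2, and 3 differed between cultures at an adjusted p under 0.05 in the F test. Their median deviations were -0.061, -0.033 and 0.13 in cultures 1, 2 and 3. Of the 12 neural stem cell markers, 5 were lowest in culture 2 and 0 differed between cultures, with median deviations of 0.045, -0.033 and 0.011. Microglia and macrophage markers were lowest in culture 2 for 7 of 12, and 0 differed between cultures. Median deviations of these 12 were 0.019, -0.062 and 0.040. Of the 14 mesenchymal and matrix markers, 10 were lowest in culture 2 and 9 differed between cultures at an adjusted p under 0.05. The median deviations of this list were 0.49, -0.29 and -0.16 in cultures 1, 2 and 3. With X5050, 11 of these 14 had changes below 0 and 3 above 0, with a median of -0.18, and THY1 had the highest at 0.32. LUM, a matrix proteoglycan gene, had the lowest change of this list. Its values were 8.45, 6.34 and 7.43 in X5050 samples against 9.45, 7.91 and 8.11 in DMSO samples. LUM fell by 1.09 with the block (adjusted p = 0.0386 by limma), and its unblocked adjusted p was 0.629. Of the 6 astrocyte markers, 4 were lowest in culture 2 and 2 differed between cultures, and their median deviations were 0.17, -0.29 and 0.060 in cultures 1, 2 and 3. They averaged 7.80, 7.16 and 7.41 in X5050 samples against 7.65, 7.20 and 7.55 in DMSO samples. The X5050 minus DMSO change was above 0 for 4 of these 6 and below 0 for 2, with a median of 0.082, so GJA1 was not typical of them. GJA1, a gap junction gene on that list, had 10.75, 9.90 and 9.81 in X5050 samples against 11.47, 10.56 and 10.28 in DMSO samples and fell by 0.61 with the block (adjusted p = 0.0444), a call lost without it (adjusted p = 0.667). Both calls were also lost without culture 3 (adjusted p = 0.0763 for LUM and 0.173 for GJA1) and after quantile normalization (0.0517 and 0.0587), and that of GJA1 without culture 2 (0.0775). The part of these markers in the lysosomal values was not tested.

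**Figure D4:**
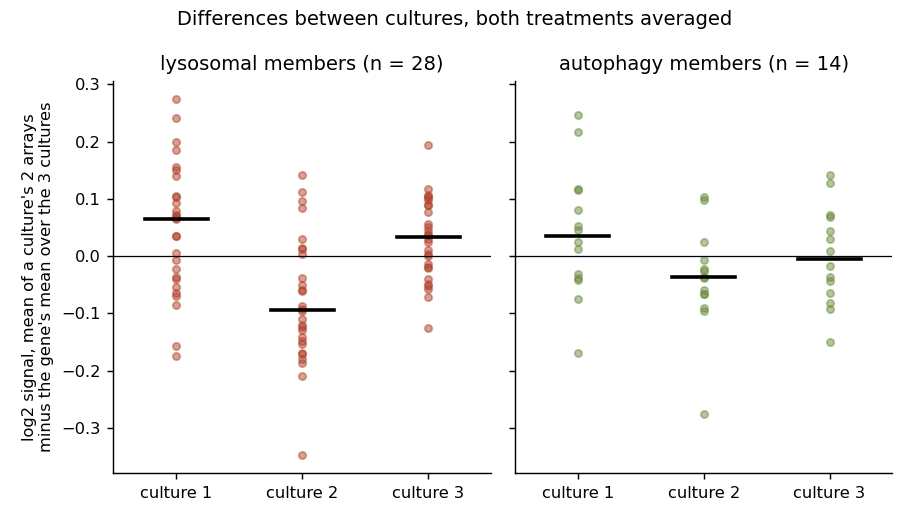
Mean of the X5050 and DMSO samples of each culture minus the mean over the 3 cultures (log2, vertical axis), each point a gene. Bars mark medians, which are 0.065, -0.095 and 0.034 for the 28 lysosomal genes and 0.035, -0.037 and -0.0047 for the 14 autophagy genes in cultures 1, 2 and 3.

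Other genes of the same pathways, 140 of 152 listed, were read beside the members, and the other 12 were not analysed here. None passed the threshold in either limma fit, and an unadjusted p under 0.05 was reached by 17 (12.1%) with X5050 higher and 4 (2.86%) with X5050 lower in the blocked fit, beside 7.06% and 7.48% of all probe sets, and by 13 and 2 in the unblocked one, beside 4.50% and 4.88%. The X5050 and DMSO arrays did not overlap for 19 with X5050 higher (13.6%) and for 5 with X5050 lower (3.57%), beside 7.51% and 7.41% of all probe sets. Their median change was 0.035. The lists were chosen with earlier results of these data known, so these shares describe the lists and do not test the pathways. Adjusted p ranged from 0.0694 to 0.611 over the 24 genes named next.

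The 24 further lysosomal hydrolases and activators had a median of 0.0086, with 13 above 0. The arylsulfatase ARSK, which acts on glucuronate 2-sulfate, stood at 0.41 (SE 0.087, adjusted p = 0.0891) and the serine carboxypeptidase SCPEP1 at 0.27. GALC, the galactosylceramidase of myelin lipid breakdown, stood at -0.33 and the hyaluronidase HYAL2 at -0.14. In the 19 further membrane and lipid egress genes the median was 0.042, and 12 were above 0. MFSD8, a lysosomal membrane protein mutated in a neuronal ceroid lipofuscinosis, stood at 0.46 (SE 0.086, adjusted p = 0.0694) with separated groups, and SLC17A5, the sialic acid exporter, at 0.33. CLN3, also mutated in a ceroid lipofuscinosis, stood at -0.28 with separated groups, and OSTM1, the partner of the chloride transporter CLCN7, at -0.17.

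The 17 subunits and accessory proteins of the V-ATPase, the proton pump that acidifies lysosomes, had a median of 0.012 and all lay within 0.25 of 0. The cytosolic subunit genes ATP6V1C1 and ATP6V1A stood at 0.24 and 0.22, and the membrane subunit genes ATP6V0A2 and ATP6V0B at -0.22 and -0.21. The 13 genes that sort lysosomal enzymes had a median of 0.015. GNPTAB, which starts the mannose 6-phosphate tag, stood at 0.35 (SE 0.090, adjusted p = 0.135) with separated groups. Of the receptors for that tag, IGF2R stood at 0.14 and M6PR at -0.21, and CLN6, which helps enzymes leave the endoplasmic reticulum, at -0.15.

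The 38 further autophagy genes had a median of 0.053, with 26 above 0. ATG10, the E2-like enzyme for ATG12, stood at 0.34, and RB1CC1, the scaffold of the ULK1 complex, at 0.25. ATG4B, the protease that trims ATG8 proteins, stood at -0.25, and WDR45B, a relative of WIPI1, at -0.22. The 29 genes of the TFEB family and of mTORC1 control had a median of 0.037, and all X5050 arrays were above all DMSO arrays for 7 of them (24.1%) and below for 1 (3.45%), beside 7.51% and 7.41% of all probe sets. Across the other 5 lists, the share with X5050 above ranged from 5.26% to 17.6%, and the difference between lists was not tested. SESN3, a sestrin that restrains mTORC1, stood at 0.54 (SE 0.10, adjusted p = 0.0707) and MITF, a relative of TFEB, at 0.38 (SE 0.089, adjusted p = 0.110). LAMTOR5 and LAMTOR3, subunits of the complex that holds mTORC1 at the lysosome, stood at -0.35 and -0.23. ARSK, MFSD8 and SESN3 passed the threshold when the dimmer probe sets were left out (adjusted p = 0.0448, 0.0357 and 0.0377). SESN3 also passed under another alternative, and its adjusted p ranged from 0.0164 to 0.318 over the alternatives.

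**Figure D5:**
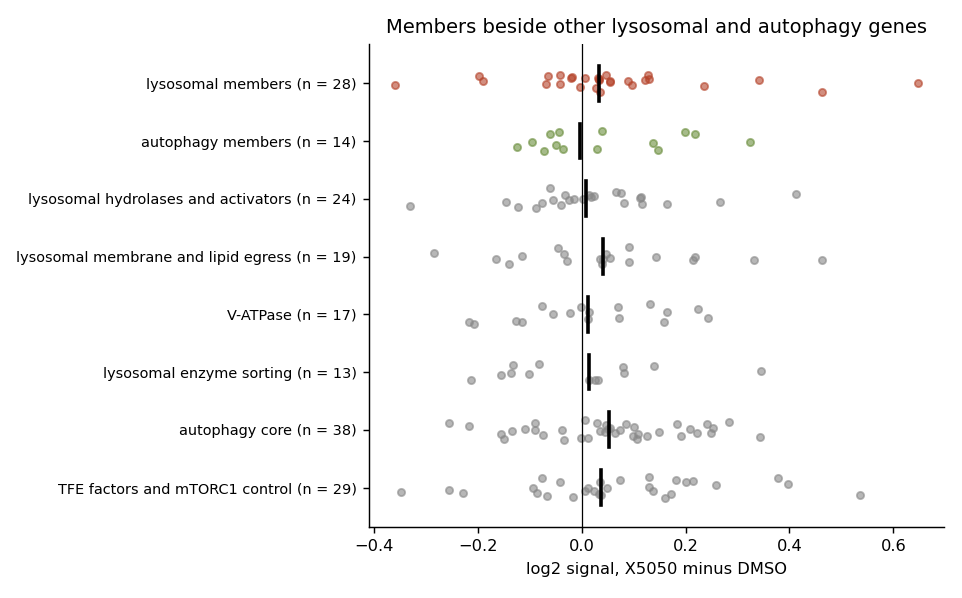
X5050 minus DMSO change (log2) of the 28 lysosomal and 14 autophagy members beside 6 lists of other genes of the same pathways, each point a gene and each bar the median of its list. All medians lie between -0.0028 and 0.053, and MANBA, at 0.65, is the highest point.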

How the data were processed

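RNA of 6 samples (3 X5050, 3 DMSO) was measured on Affymetrix whole-transcript arrays from 100 ng of total RNA, per the labels. The values the authors deposited are log2 signals per probe set; RMA and Partek are named in the submitters' processing notes, with no version or setting, and no genome build (not given in the sources used here). Of 33297 probe sets, 19460 had 1 gene symbol in the platform annotation, 1754 had several and 12083 were not listed there and stay unnamed. Symbols were checked against RefSeq by Entrez ID (19429 matched, 0 changed). Depth has no meaning for arrays, and the number of arrays limits precision.

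Changes were tested with limma 3.58.1 in R 4.3.3 (treatment plus culture, 2 residual degrees of freedom) over all 19460 probe sets, without a filter, a pseudocount or further normalization. Python 3.11.15 and matplotlib 3.10.9 were used for summaries and plots. The study design says that 3 cultures were each given both agents. Deviations of same-numbered samples from their group means correlated positively across probe sets (r = 0.36, 0.30 and 0.25), so the culture was a block. Those of different numbers gave -0.24 to -0.052. Deviations sum to 0 within each arm, so these negative values follow from the positive ones and add no separate support. The fit without the block is given beside each call it changed.

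The members, the lists of other genes and the blocked fit were chosen with earlier results of these data known. Values on every array are given for called members, for up to 2 members of each role and direction with the lowest p, and for TFEB and ATG2B; each other list is represented by the 2 genes of lowest p among those above 0 and the 2 among those below. IDS, LUM and GJA1 were added after their values were seen, and NFKB1 and CISD2 as the nearest genes tested on either side of MANBA. Alternatives left out the block, each culture or dim probe sets, rescaled the arrays (median, quantile), took the median probe set of a symbol, or let the prior variance follow intensity. An exact permutation test of 3 against 3 arrays cannot go below p = 0.1 and was not used.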

Additional observations from a re-analysis of the deposited data

How the results depend on the processing

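Each result was recomputed under 9 alternatives. The count of members called higher was 1 (MANBA) with the replicate block and 0 with no replicate block, 0 with each array centred on its median, 0 to 1 when 1 culture was left out (0 without culture 3), 2 without dim probe sets (MANBA and CTSL), 2 with the median probe set per symbol (MANBA and ATG2B) and 2 with an intensity trend (MANBA and CTSL). The count of members called lower stayed at 0 in every one, and the median changes of both kinds of member moved by less than the spread between cultures. Over the whole table, 97 probe sets passed with the block, 0 with no replicate block, 51 after quantile normalization, 252 without dim probe sets, 274 with an intensity trend, and 0 to 346 when 1 culture was left out (346 without culture 1, 0 without culture 3). Leaving out dim probe sets removed 12 of the 43 members and fewer genes were then tested. MANBA ranged from an adjusted p of 0.0206 (intensity trend) to 0.269 (without culture 3).

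Of the single-gene changes, 26 reversed in sign, and all were of members far from the threshold. When 1 culture was left out, the ranges that crossed 0 were those of ASAH1 (-0.088 to 0.10), ATG14 (-0.20 to 0.13), ATG9A (-0.11 to 0.031), BECN1 (-0.066 to 0.17), CTSA (-0.094 to 0.095), CTSD (-0.11 to 0.037), CTSZ (-0.015 to 0.072), FUCA1 (-0.16 to 0.095) and GABARAPL1 (-0.067 to 0.13). Further ranges that crossed 0 were those of GLA (-0.0022 to 0.013), GLB1 (-0.015 to 0.26), LAMP2 (-0.041 to 0.12), LIPA (-0.36 to 0.021), MAN2B1 (-0.024 to 0.066), MAP1LC3B (-0.16 to 0.025), PSAP (-0.14 to 0.070), SQSTM1 (-0.11 to 0.050) and ULK1 (-0.19 to 0.037). After quantile normalization the reversed changes were CTSA (0.016), CTSD (0.0065) and PSAP (0.022), and with centred arrays GLA (-0.012). The remaining 606 single-gene values kept their direction, and of these 12 lost and 7 gained the threshold. The cause of these shifts was not tested, other than the fewer arrays or genes that an alternative itself leaves.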
